A study of Mus musculus with 6 samples.

Results

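Srsf1, Clk1 and Luc7l encode parts of the machinery that decides which exons enter an mRNA, and their own transcripts are alternatively spliced. Every event listed under these 3 gene symbols was taken, which gave 6 events in 3 of the 2685 genes compared: 1 event of Srsf1, 2 of Clk1 and 3 of Luc7l. All 6 were listed in all 6 libraries, and each lay between 0.01 and 0.99 in every library. The genes were picked with inclusion values of these libraries already known, so their values are given as a description. Standard errors and counts of events past a threshold come from a fit over all events, and for these 6 events no p-value is given and nothing is read from such a count.

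The libraries came from primary mouse medullary thymic epithelial cells (mTECs), the thymic stromal cells that show tissue antigens to developing T cells, sorted as CD45- EpCAM+ Ly51- I-A/E+. In all 3 groups the cells grew on human dermal fibroblasts in a fibrin gel, carried a pLKO.3G lentivirus with an shRNA and eGFP, and were sorted 5 days after infection as DAPI- I-A/E+ GFP+. The control group (Ctr, n = 2) carried an shRNA against LacZ, a bacterial gene; the Raver2 knockdown group (n = 2) carried sh1 or sh2 against Raver2, whose protein binds RNA together with PTB, a repressor of splicing; and the Setd2 knockdown group (n = 2) carried sh1 or sh2 against Setd2, which encodes the methyltransferase for lysine 36 of histone H3. The labels give no mouse strain or age and no animal of origin for a library, so any p-value measures only the spread between these libraries. In the knockdown groups that spread includes the difference between sh1 and sh2, while both Ctr libraries carry the same label. The fit pools these kinds of spread.

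SRSF1 is a founding SR protein: its RNA recognition motifs bind purine-rich stretches in exons, and its arginine- and serine-rich (RS) tail recruits the spliceosome and promotes exon inclusion. CLK1 is a dual-specificity kinase of the nucleus that phosphorylates RS tails and so releases SR proteins from nuclear speckles. LUC7L is a mammalian relative of yeast Luc7, a protein of the U1 snRNP that helps to choose 5′ splice sites. Genes of this kind are known for controlling their own output by splicing, often through transcripts that are degraded by nonsense-mediated decay.

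The inclusion tables name a gene for each event and no exon. To show what can be spliced in or out, the exons that GENCODE M21 (mm10) annotates as skipped singly between the same neighbours in another transcript are printed in transcript direction, 5′ to 3′, counting transcripts with exactly these exon ends; no event number is assigned to any of them. Capitals mark GGAGA and GAAGAA, purine-rich motifs linked to SRSF1, searched on the transcript strand only, with overlapping matches merged.

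The gene Srsf1 (ENSMUSG00000018379, chromosome 11, 88047373 to 88053755, plus strand) has 7 annotated transcripts, of which 3 are protein coding, 2 are targets of nonsense-mediated decay and 2 retain an intron. Its skipped exon is exon 4 of the 5 exons of Srsf1-202 (chr11:88049412-88049598, coding), and the transcript that skips it is annotated for nonsense-mediated decay. The exon codes for a stretch of the RS tail, the kind of tail that CLK1 modifies: 39 of its 62 whole codons (62.9%) are for arginine or serine, with 26 adjacent arginine-serine pairs in either order.
Srsf1 187-base exon: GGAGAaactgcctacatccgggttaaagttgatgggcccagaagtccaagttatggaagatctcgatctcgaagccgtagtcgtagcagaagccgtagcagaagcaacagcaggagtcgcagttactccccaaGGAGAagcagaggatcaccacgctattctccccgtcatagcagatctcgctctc

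The gene Clk1 (ENSMUSG00000026034, chromosome 1, 58410189 to 58424066, minus strand) has 13 transcripts, of which 1 is protein coding, 2 are targets of nonsense-mediated decay and 7 retain an intron. Exon 4 of Clk1-201 (chr1:58420121-58420211, minus strand, coding) is included in 1 transcript and skipped in 3. Exon 7 (chr1:58417013-58417179, minus strand, coding) is included in 4 and skipped in 1. Neither length is a multiple of 3, so skipping either one alone shifts the reading frame. The 1 transcript that skips exon 7 also lacks exon 4. Divided by 3, the lengths of exons 4 and 7 leave 1 and 2 bases, so skipping both does not change the frame after exon 7. Of the 30 whole codons of exon 4, 10 are for arginine or serine (33.3%), against 7 of 55 in exon 7 (12.7%).
Clk1 91-base exon: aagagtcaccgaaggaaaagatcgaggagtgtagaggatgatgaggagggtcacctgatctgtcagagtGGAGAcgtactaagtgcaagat
Clk1 167-base exon: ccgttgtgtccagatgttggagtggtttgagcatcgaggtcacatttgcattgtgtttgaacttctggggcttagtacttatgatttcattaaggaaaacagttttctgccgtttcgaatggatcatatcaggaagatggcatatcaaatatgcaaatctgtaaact

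The gene Luc7l (ENSMUSG00000024188, chromosome 17, 26252896 to 26285504, plus strand) has 9 transcripts, of which 5 are protein coding, 1 is a target of nonsense-mediated decay and 2 retain an intron. Exon 2 of Luc7l-206 (chr17:26253974-26254044) is included in that 1 transcript, which is the one annotated for nonsense-mediated decay, and is skipped in 3 protein-coding transcripts. Exon 6 of Luc7l-201 (chr17:26275674-26275850, coding) is included in 7 transcripts and skipped in 1. The first is a frame-shifting exon and the second keeps the frame, with a length that is a multiple of 3.
Luc7l 71-base exon: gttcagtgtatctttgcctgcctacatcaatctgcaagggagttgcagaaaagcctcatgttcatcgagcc
Luc7l 177-base exon: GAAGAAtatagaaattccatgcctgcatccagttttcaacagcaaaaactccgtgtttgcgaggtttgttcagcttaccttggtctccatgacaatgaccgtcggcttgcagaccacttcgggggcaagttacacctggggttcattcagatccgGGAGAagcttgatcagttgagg

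GGAGA occurs in 3 of these 5 exons, and GAAGAA in 1 of them, the Luc7l 177-base exon. Among all fully coding internal exons of the same length, GGAGA is present in 37.6% of 434 exons for the Srsf1 exon, in 20.8% of 985 for the Clk1 91-base exon and in 38.9% of 748 for the Luc7l 177-base exon, where GAAGAA is present in 18.2%. For the Clk1 167-base and Luc7l 71-base exons, which hold neither motif, GGAGA is present in 37.2% of 672 and 15.1% of 797 exons of their length. These matches are a description of letters and say nothing of binding.

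**Figure D1:**
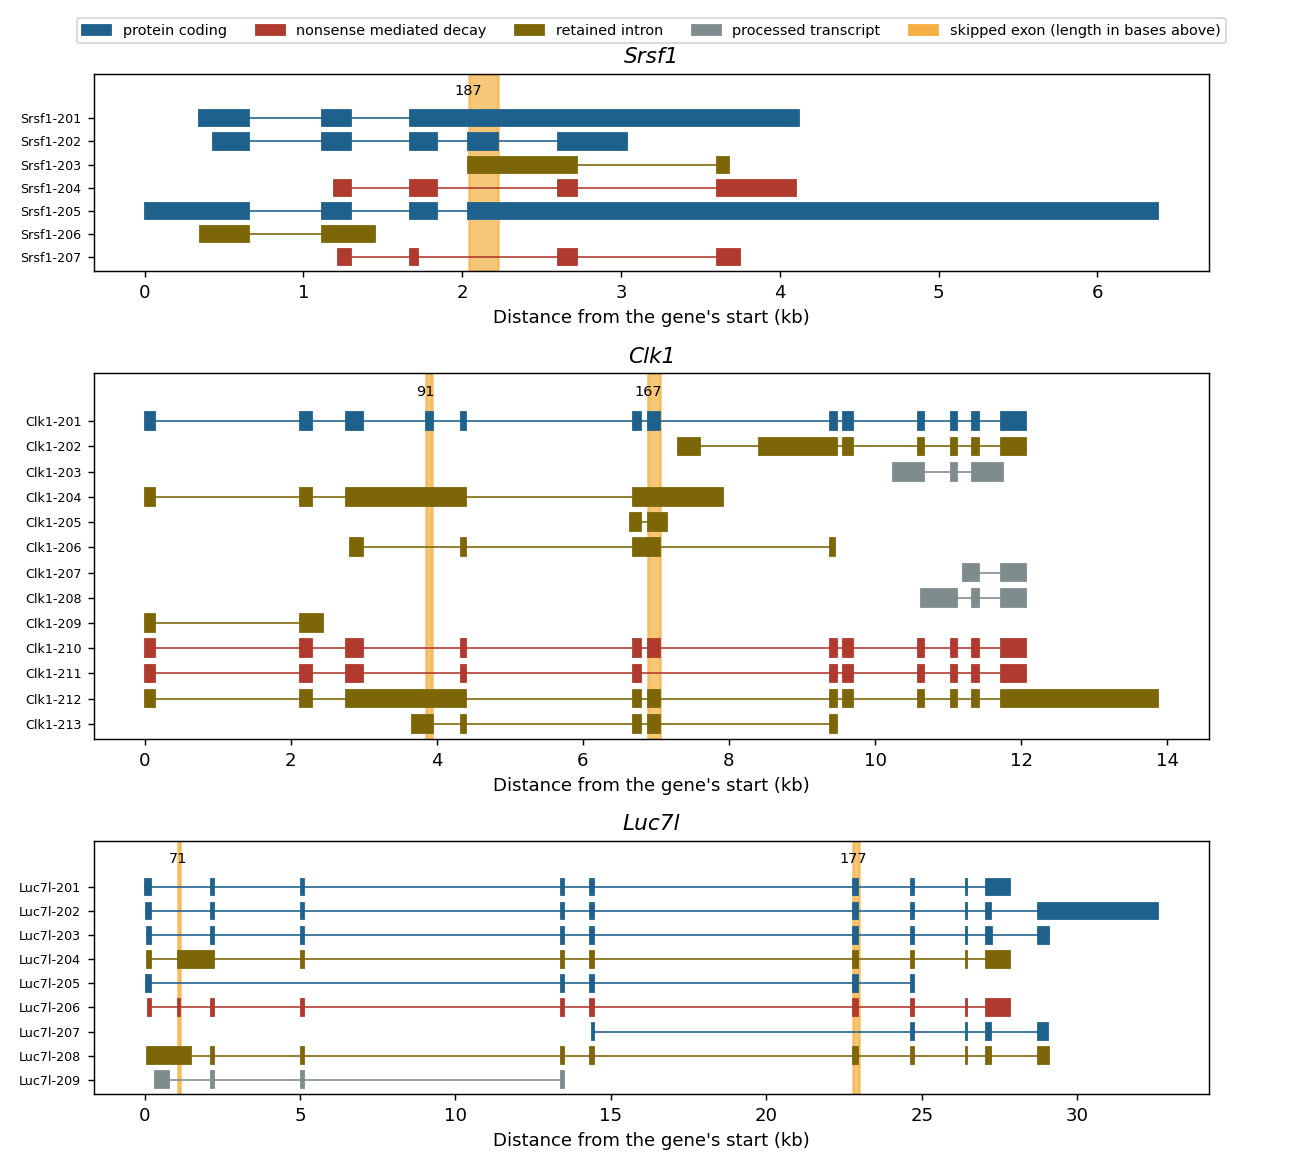
Annotated transcripts of Srsf1, Clk1 and Luc7l (GENCODE M21, mm10), drawn to scale in the direction of transcription, with distance from the gene's start in kb on the x axis. Boxes are exons, colours give the transcript class, and orange bands mark the 5 singly skipped exons with their lengths in bases; 7 of the 13 Clk1 transcripts and 2 each of the Srsf1 and Luc7l transcripts are of the retained-intron class.

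In 5 of the 6 events, all but Luc7l event 1, the 4 knockdown libraries lay above both Ctr libraries. The largest differences, between 0.259 and 0.292 of the scale, were those of Srsf1 and of Luc7l events 2 and 3, and those of Clk1 lay between 0.0650 and 0.149. Taken one knockdown at a time, the same 5 events lay above Ctr, as did 20.7% of all events for Raver2 and 21.2% for Setd2 knockdown; 11.9% of all events, and 14.2% of the 2000 events that stayed between 0.01 and 0.99, did so for both. Nothing is read from these counts, since the genes were chosen on such values.

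The Srsf1 event, in the gene of the SR protein itself, was included at 0.135 and 0.103 in the Ctr libraries. It was included at 0.364 and 0.404 in the Raver2 knockdown libraries (sh1 and sh2) and at 0.376 and 0.405 in the Setd2 knockdown libraries. All 4 knockdown libraries lay above both Ctr libraries, with a gap of 0.229 between the highest Ctr and the lowest knockdown value, while the libraries within a group lay 0.0290 to 0.0394 apart. Means were 0.119 ± 0.0226 for Ctr, 0.384 ± 0.0279 for Raver2 knockdown and 0.391 ± 0.0205 for Setd2 knockdown (SD, n = 2 each). The difference from Ctr was 0.265 ± 0.0393 (SE from limma over all events) for Raver2 knockdown, a 3.22-fold ratio of means, and 0.272 ± 0.0393 for Setd2 knockdown, a 3.28-fold ratio. Leaving out any single library of the groups compared left the first difference between 0.245 and 0.285 and the second between 0.256 and 0.288.

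Event 1 of Clk1, the SR protein kinase gene, was included at 0.598 and 0.639 in Ctr. The fractions were 0.765 and 0.705 under Raver2 knockdown and 0.751 and 0.785 under Setd2 knockdown. The groups did not overlap, but the gap of 0.0664 between Ctr and the nearest knockdown library, sh2 against Raver2, was close in size to the 0.0596 that separated the libraries of that target. The difference from Ctr was 0.117 ± 0.0337 (SE) for Raver2 knockdown and 0.149 ± 0.0337 for Setd2 knockdown.

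Event 2 of Clk1 was a minor form in every library. Its fractions were 0.0532 and 0.0799 in Ctr, 0.124 and 0.139 under Raver2 knockdown, and 0.124 and 0.139 under Setd2 knockdown. The knockdown libraries again all lay above Ctr, here by at least 0.0446. The mean went from 0.0665 ± 0.0189 in Ctr (SD, n = 2) to 0.132 ± 0.00998 and 0.132 ± 0.0102, a 1.98-fold ratio of means for both targets and a difference of 0.0650 ± 0.0130 (SE) and 0.0651 ± 0.0130. Both Clk1 events were thus higher in the same 4 libraries, and they are not complements: their sum was 0.651 and 0.719 in Ctr and 0.844 to 0.924 in the knockdown libraries.

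Luc7l, the U1 snRNP gene, held 3 events that did not move alike. Event 1 was included at 0.491 and 0.416 in Ctr, 0.423 and 0.316 under Raver2 knockdown, and 0.416 and 0.469 under Setd2 knockdown. These groups overlapped. The difference from Ctr was -0.0840 ± 0.0692 (SE) for Raver2 knockdown and -0.0106 ± 0.0692 for Setd2 knockdown; leaving out 1 library gave -0.137 to -0.0305 for the first. The second ran from -0.0483 to 0.0270 and so had no stable sign.

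Event 2 of Luc7l was included at 0.243 and 0.354 in Ctr. The fractions were 0.531 and 0.589 under Raver2 knockdown and 0.554 and 0.563 under Setd2 knockdown. Every knockdown library lay above both Ctr libraries by at least 0.177. The mean was 0.299 ± 0.0781 in Ctr (SD, n = 2), and the difference from it was 0.262 ± 0.0638 (SE) and 0.260 ± 0.0638 for Raver2 and Setd2 knockdown.

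Event 3 of Luc7l was included at 0.396 and 0.568 in Ctr, the widest separation within a group among the 6 events. The fractions were 0.728 and 0.820 under Raver2 knockdown and 0.749 and 0.733 under Setd2 knockdown. The groups did not overlap, with a gap of 0.160 against a distance of 0.173 between the Ctr libraries. The difference from Ctr was 0.292 ± 0.0749 (SE) for Raver2 knockdown and 0.259 ± 0.0749 for Setd2 knockdown; leaving out 1 library gave 0.205 to 0.378 and 0.173 to 0.345.

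Events 2 and 3 of Luc7l kept the same order in each library, event 3 being 0.152 to 0.230 higher than event 2, and both were lower in Ctr library 1 than in Ctr library 2. Event 1 was the higher of events 1 and 2 in both Ctr libraries, by 0.248 and 0.0619, and the lower in all 4 knockdown libraries, where event 2 exceeded it by 0.0936 to 0.274. Events of the same gene come from the same transcripts and library, so they are not separate measurements of a condition.

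**Figure D2:**
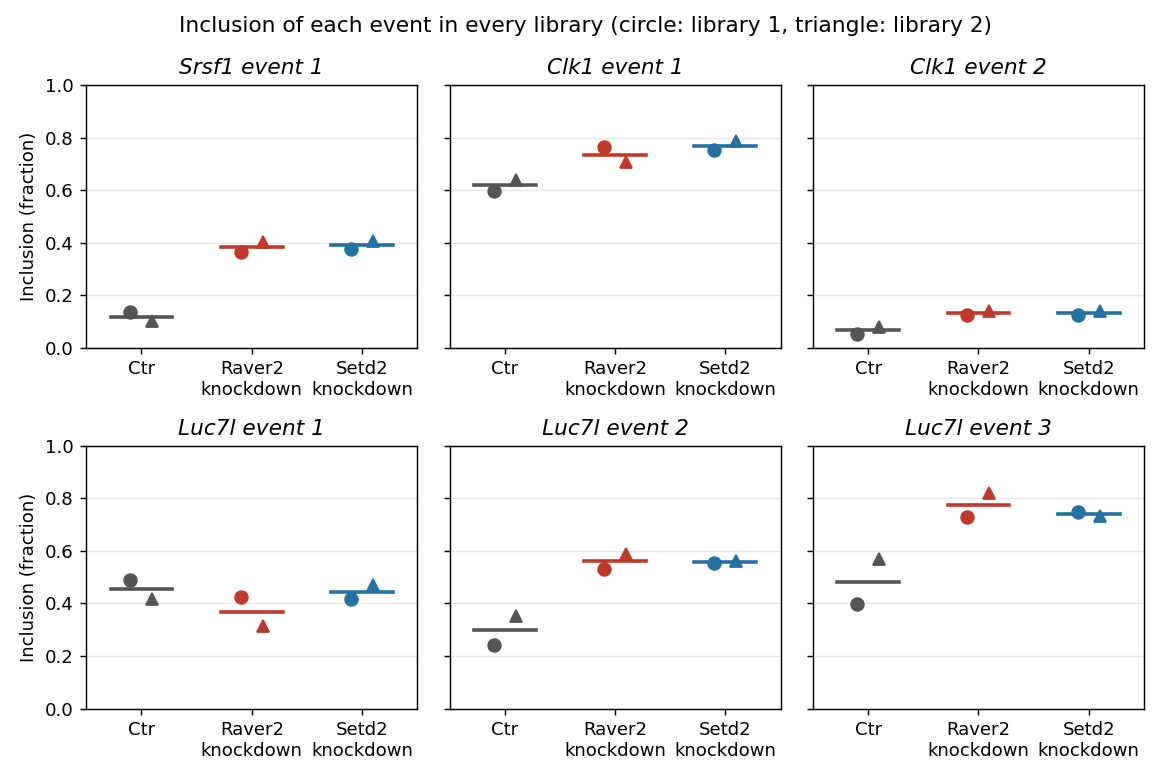
Inclusion (fraction, y axis from 0 to 1) of the 6 events in every library, grouped by Ctr, Raver2 knockdown and Setd2 knockdown on the x axis; circles are library 1 (or sh1), triangles library 2 (or sh2), and bars the mean of the 2. In 5 panels both knockdown groups sit above both Ctr libraries, and in Luc7l event 1 the groups overlap.

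Raver2 and Setd2 knockdown gave close values, and the libraries of the 2 targets overlapped in all 6 events, where 33.8% of all events did not overlap. The difference of Raver2 minus Setd2 knockdown was -0.00679 ± 0.0393 (SE) for Srsf1, -0.0327 ± 0.0337 and -0.000127 ± 0.0130 for Clk1 events 1 and 2, and -0.0734 ± 0.0692, 0.00180 ± 0.0638 and 0.0329 ± 0.0749 for Luc7l events 1 to 3. These values do not show that the knockdowns act alike, and both comparisons with Ctr use the same 2 Ctr libraries.

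None of the 6 events passed the test across all events (limma, Benjamini-Hochberg adjusted p under 0.05), which called 2.43% of the 4658 events for Raver2 knockdown against Ctr, 2.23% for Setd2 knockdown against Ctr and 0.73% between the knockdowns. At an unadjusted limma p under 0.05, 5 of the 6 were counted for each knockdown against Ctr, all but Luc7l event 1, where 12.0% and 11.6% of all events were counted; between the knockdowns it was 0 of 6, against 6.12%. Among the 2000 events between 0.01 and 0.99, to which all 6 belong, a fit to those events alone called 0.5%, 0.3% and 0.0% in the same order, and again none of the 6. Here too nothing is read from the counts.

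**Figure D3:**
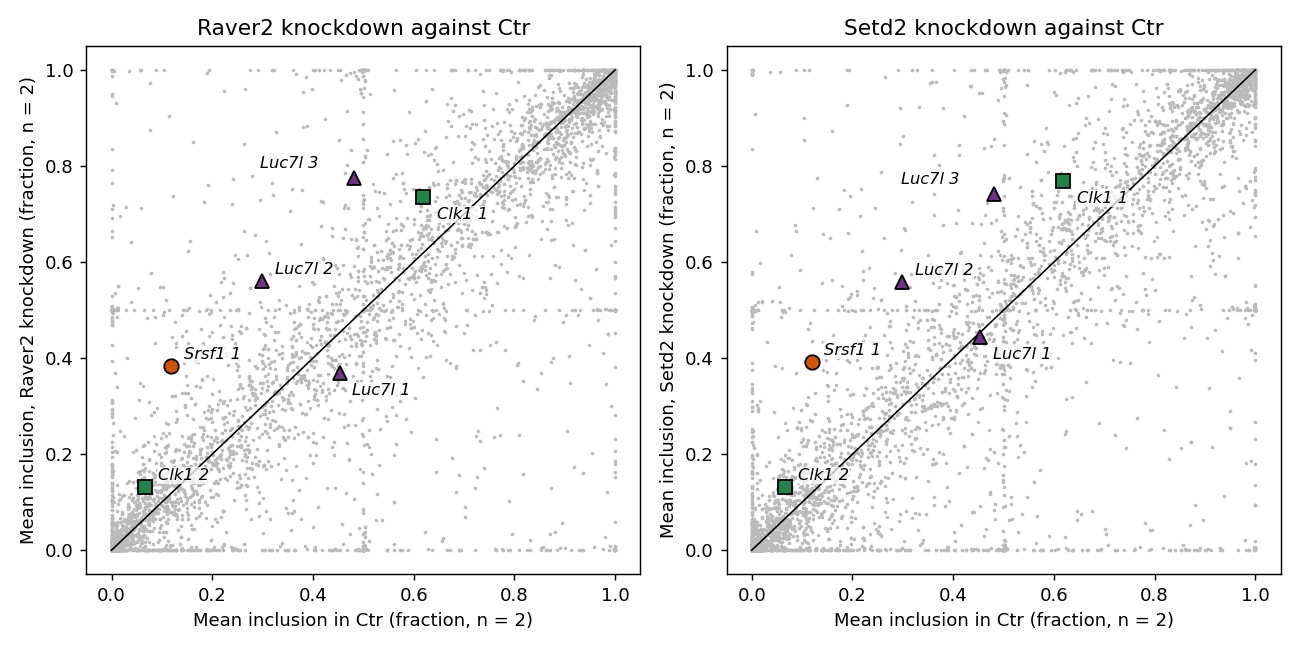
Mean inclusion (fraction, n = 2) in Ctr on the x axis and in Raver2 knockdown (left) or Setd2 knockdown (right) on the y axis, with all 4658 events in grey, the 6 events of Srsf1, Clk1 and Luc7l as coloured symbols with their event number, and the line of equal values. Srsf1 lies at 0.119 in Ctr against 0.384 and 0.391, above the line in both panels, and Luc7l event 1 lies at or below it.

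The rest of the pathway was read from lists of related genes. These lists were also chosen with earlier results of these data known, so their counts and p-values are a description. Of 30 SR proteins and relatives, 9 genes with 18 events were compared (Srsf3, Srsf5, Srsf7, Srsf9, Srsf10, Srrm1, Acin1, Rnps1 and Rbm39) and 21 had no event. In all 3 comparisons 0 of the 18 events passed (limma, adjusted p under 0.05); at an unadjusted p under 0.05 it was 2 for Raver2 knockdown against Ctr, 0 for Setd2 knockdown against Ctr and 2 between the knockdowns, where 12.0%, 11.6% and 6.12% of all events were counted. The median difference from Ctr was -0.0077 for Raver2 and -0.0025 for Setd2 knockdown, against -8.9e-07 and 3.1e-11 over all events. Events 1 and 3 of Rbm39 held the same values and event 2 was their complement, so these 3 are 1 measurement. Events 1 and 2 of Srsf10 were likewise complements of each other.

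Within that list, event 1 of Rnps1, a protein of the exon junction complex, was included at 0.652 and 0.621 in Ctr, at 0.480 and 0.522 with the Raver2 hairpins and at 0.626 and 0.606 with the Setd2 hairpins. The Raver2 knockdown libraries were the lowest, and the difference from Ctr was -0.136 ± 0.0375 (SE; limma, adjusted p = 0.311). Srsf9, an SR protein close to Srsf1 in sequence, averaged 0.0164 in Ctr, 0.0330 with Raver2 hairpins and 0.0252 with Setd2 hairpins (limma, adjusted p = 0.405 and 0.699 against Ctr). Srrm1, a coactivator with RS repeats, averaged 0.867, 0.811 and 0.910 in that order (limma, adjusted p = 0.567 and 0.699).

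Among 19 genes for kinases, phosphatases and import of SR proteins, only Akt1 and Dyrk1b had an event; the other CLK genes and the SRPK genes, the other main kinases of SR proteins, had none. Akt1, a kinase of growth factor signalling, averaged 0.962 in Ctr, 0.941 with Raver2 hairpins and 0.979 with Setd2 hairpins, and Dyrk1b, a kinase related to the CLKs, had 0.252, 0.259 and 0.184. Neither passed in any of the 3 comparisons (limma, 0 of 2 events; 0 at an unadjusted p under 0.05). The median difference from Ctr was -0.0075 for Raver2 knockdown and -0.025 for Setd2 knockdown.

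Of 21 genes of the LUC7 family and the U1 snRNP, 2 genes with 1 event each were compared, and 0 passed in any comparison (limma; at an unadjusted p under 0.05, 1 for Raver2 knockdown against Ctr, 0 for Setd2 knockdown against Ctr and 1 between the knockdowns). Luc7l2, the closest relative of Luc7l, was included above 0.99 and at 0.893 in Ctr, at 0.874 and 0.850 under Raver2 knockdown and above 0.99 in both Setd2 knockdown libraries. The Raver2 knockdown libraries were the lowest, with a difference from Ctr of -0.0846 ± 0.0404 (SE; limma, adjusted p = 0.590). Tia1, which helps U1 to bind weak splice sites, had means of 0.841, 0.898 and 0.879 in Ctr, Raver2 and Setd2 knockdown (limma, adjusted p = 0.405 and 0.607 against Ctr). The median difference of the 2 events from Ctr was -0.014 for Raver2 and 0.046 for Setd2 knockdown.

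Genes with exons linked to SRSF1 in other cells gave 25 events of 14 genes out of 20. For Raver2 knockdown against Ctr, 2 events rose and 1 fell, 22 did not pass, and the median difference was 0.017. The 2 that rose were both events of Cd247 with close values in every library, so they are not separate measurements. For Setd2 knockdown against Ctr, 0 rose and 1 fell, 24 did not pass, and the median was 0.0051. Over all events 2.43% and 2.23% passed in these comparisons. At an unadjusted limma p under 0.05, 8 and 5 of the 25 were counted, against 12.0% and 11.6% of all events. Nothing is read from these counts, since the list was chosen with earlier results of these data known. Event 2 of Fn1, the gene of the matrix protein fibronectin, was included at 0.135 and 0.120 in Ctr and fell to below 0.01 in all 4 knockdown libraries, a change of -0.127 ± 0.00590 (SE; limma, adjusted p = 0.00676) for Raver2 knockdown and -0.126 ± 0.00590 (adjusted p = 0.00811) for Setd2 knockdown. The other 4 events of Fn1 did not pass: event 1 had means of 0.134, 0.210 and 0.239 in Ctr, Raver2 and Setd2 knockdown, and event 4 had 0.699, 0.577 and 0.573. The Setd2 call of Fn1 event 2 was lost in 4 of the 11 other settings that could test it, with adjusted p up to 0.0614: with only the 4 libraries compared, and without Raver2 knockdown library 1 or 2 or Setd2 knockdown library 1.

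Events 2 and 3 of Cd247, the gene of the T cell receptor zeta chain, were below 0.01 in both Ctr and both Setd2 knockdown libraries. Under Raver2 knockdown they rose to 0.0506 and 0.0587 for event 2 and to 0.0552 and 0.0610 for event 3 (limma, adjusted p = 0.0115 and 0.00520 against Ctr). Neither these events nor Fn1 event 2 could be tested among events between 0.01 and 0.99. Event 3 passed in the 11 remaining settings for this comparison, while event 2 was lost with only the 4 libraries compared and without either Setd2 knockdown library, with adjusted p up to 0.0655. The event of Bin1, a membrane-bending adaptor with a well-known SRSF1-dependent exon, was included at 0.00186 and below 0.01 in Ctr and at 0.0146 to 0.0205 in the knockdown libraries, which all lay above Ctr (limma, adjusted p = 0.0974 and 0.0878). Whether this event is that exon is not known, since no exon is named. Event 2 of Nasp, a histone chaperone gene, had means of 0.0232, 0.0419 and 0.0284 (adjusted p = 0.313 and 0.777). The labelled target of either knockdown gives no check here, because Raver2 and Setd2 have 0 listed events, and inclusion fractions hold no expression level: events were listed for 2 of 10 mTEC markers (Aire and Cd74), 1 of 10 fibroblast markers and 3 of 10 leukocyte markers, which says nothing of the cells' share.

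Of the 10 events of the mTEC markers, 2 rose and 1 fell in each knockdown against Ctr (limma, adjusted p under 0.05), and all 3 were events of Aire, the transcriptional regulator of tissue antigens in mTECs. The share over all events was 2.43% for Raver2 and 2.23% for Setd2 knockdown. Aire event 3 was close to the complement of event 1, and events 4 and 9 held the same values. The 10 events are therefore not separate measurements. Aire event 7 took values of 1.0 and 0.000492 in Ctr, 1.72e-60 and 1.0 with the Raver2 hairpins, and 7.1e-07 and 1.0 with the Setd2 hairpins. Every group thus spanned the scale for this event. The cause, a differing row order included, was not tested. In Ctr, Aire events 1 and 2 were below 0.01 and event 3 above 0.99. With the Raver2 hairpins they moved to 0.108 and 0.122, 0.190 and 0.168, and 0.892 and 0.890 (limma, adjusted p = 0.0192, 0.00820 and 0.00572). With the Setd2 hairpins they moved to 0.0846 and 0.0677, 0.118 and 0.110, and 0.925 and 0.933 (limma, adjusted p = 0.0498, 0.0254 and 0.0190). Of the 11 other settings that could test them, the Raver2 calls held in 8, 11 and 11 and the Setd2 calls in 2, 6 and 8, with adjusted p up to 0.0747 and 0.145. The Raver2 call of event 1 was lost without either Ctr library and without Raver2 knockdown library 2. The Setd2 calls were lost on leaving out each of the 6 libraries in turn for event 1, each Ctr or Setd2 knockdown library in turn for event 2 and each Raver2 knockdown library in turn for event 3, and for all 3 with only the 4 libraries compared. The Setd2 call of event 1 was also lost without a variance trend and with repeated events removed. None of the 10 passed between the knockdowns (limma, 3 at an unadjusted p under 0.05), and the 2 fibroblast and 3 leukocyte marker events gave 0 calls in any comparison (1 and 0 at an unadjusted p under 0.05 in each comparison with Ctr). At that unadjusted threshold 6.12% of all events were counted between the knockdowns, and 12.0% and 11.6% for Raver2 and Setd2 knockdown against Ctr. The part of the marker genes in the results for Srsf1, Clk1 and Luc7l was not tested.

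**Figure D4:**
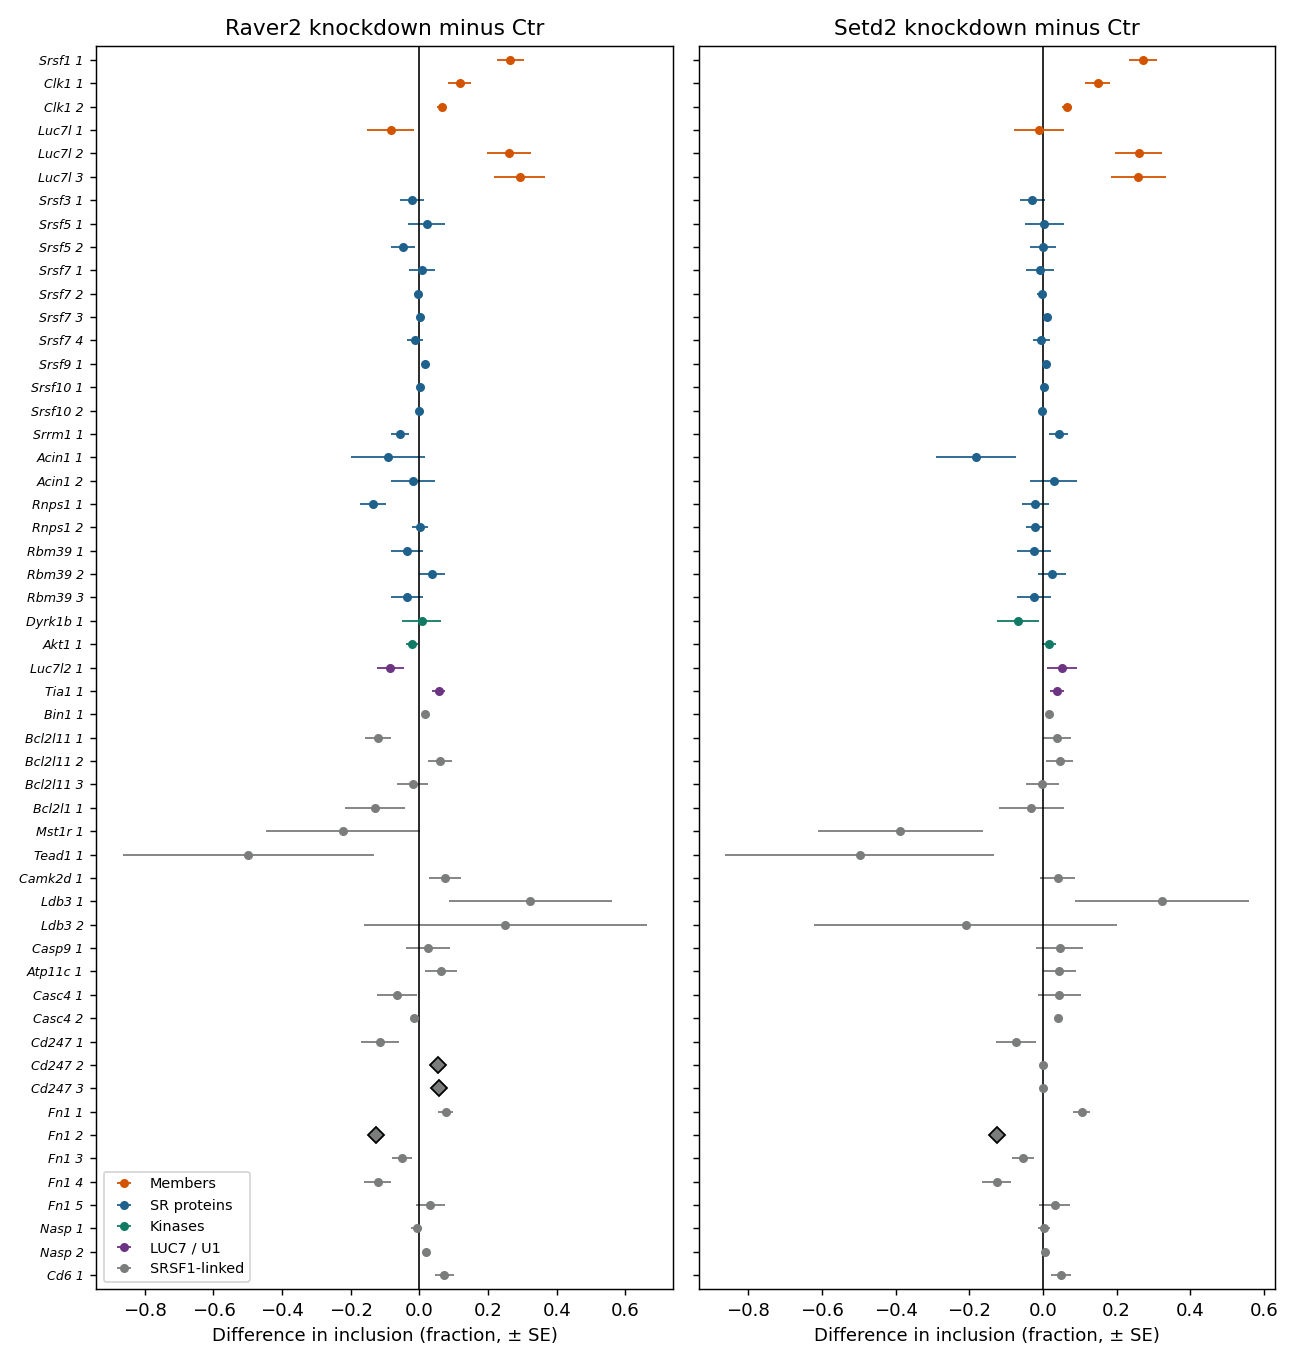
Difference in inclusion from Ctr (fraction, x axis) for Raver2 knockdown (left) and Setd2 knockdown (right), with 1 row for each event of Srsf1, Clk1 and Luc7l and of the 4 lists of related genes; bars are ± SE from limma over all events, and black-edged diamonds mark events that passed at an adjusted p under 0.05. The diamonds are Fn1 event 2 in both panels and Cd247 events 2 and 3 on the left; Srsf1 and Luc7l events 2 and 3 lie between 0.259 and 0.292 in both panels.

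Events of other genes with the most similar profile were found by centring each event on its mean over the 6 libraries and taking the mean absolute difference from the widest event of each gene, among events with a range of at least 0.1. For Srsf1 these were event 1 of Evl, an actin regulator of the Ena/VASP family (mean absolute difference 0.0199), event 4 of 1600012H06Rik (0.0215) and event 1 of Add3, an adducin of the membrane skeleton (0.0225). Evl was included at 0.556 and 0.539 in Ctr and at 0.800 to 0.848 in the 4 knockdown libraries. For Clk1 event 1 they were event 2 of Sun1, a protein of the inner nuclear membrane (0.0143), event 2 of Zfp384 (0.0146) and event 6 of Pdlim5 (0.0167). For Luc7l event 3 they were event 2 of Gimap4 (0.0237), a GTPase gene of lymphocytes, event 1 of Il15ra (0.0315), a cytokine receptor gene, and event 2 of Tspan32 (0.0340). Gimap4 was included at 0.0784 and 0.211 in Ctr and at 0.359 to 0.420 in the knockdown libraries. The search covered 2798 candidate events for Srsf1 and Clk1 and 2796 for Luc7l over 6 libraries, and the likeness is a description with no test.

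**Figure D5:**
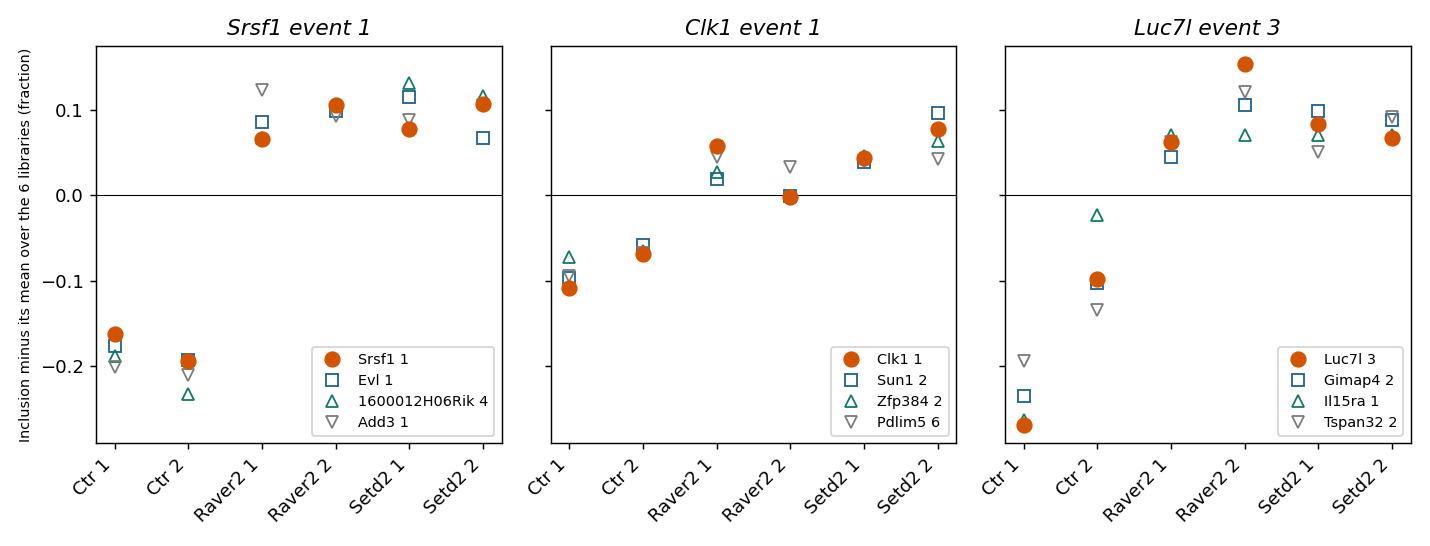
Inclusion minus its mean over the 6 libraries (fraction, y axis) in each library (x axis) for Srsf1 event 1, Clk1 event 1 and Luc7l event 3 (filled circles) and the 3 events with the closest profile to each (open symbols). In each panel both Ctr libraries lie below 0; Ctr library 1 is the lower of the pair for Luc7l and for the 3 events drawn with it.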

How the data were processed

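The authors deposited 1 table per library with a gene symbol and a fraction from 0 to 1, the inclusion frequency of an alternative splicing event; libraries listed 4777 to 4949 events. Trimmomatic 0.39, TopHat2, Cufflinks and mm10 are named, without roles, per the submitters' processing notes; the computation of the fraction is not given in the sources used here. Counts of reads were not analysed: the depth of each value is unknown, and intervals for counting error cannot be given. RNA was extracted as total RNA and amplified with SMART-seq v4 before Nextera XT library preparation, per the labels' protocols; amplification from few cells can widen the spread between libraries.

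Events were numbered by row order within a gene and matched between libraries by that number, which assumes a shared order. In genes with several events, fractions at the same position correlated between libraries at 0.742 to 0.802 (Pearson), against 0.0863 to 0.133 after a shift by 1 place. These correlations pool all such genes, so they cannot show that the order is shared in any single gene, Clk1 and Luc7l included. Of 2898 genes, 2685 with 4658 events had the same number of events in all 6 libraries and were compared. Differences were fitted with limma 3.58.1 in R 4.3.3 on the fractions, with 1 mean per group over all 6 libraries, a variance trend, two-sided contrasts and Benjamini-Hochberg adjustment over all 4658 events; the code was tested on simulated data. Tables and figures used Python 3.11.15 with pandas 2.3.3, numpy 2.4.6 and matplotlib 3.10.9. Exons were cut from GENCODE M21 transcripts.

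The genes and the lists of related genes were chosen with earlier results of these data known. The text names every event of Srsf1, Clk1 and Luc7l, each list event past the threshold, up to 3 other events per list by absolute moderated t for Raver2 knockdown against Ctr, and the 3 closest profiles per gene. The Rbm39 and Srsf10 events, Fn1 event 4, Cd247 event 1 and Aire events 4, 7 and 9 were named after their values were seen. A gene of the lists is not reported here. Alternatives were arcsine and logit scales (0.01 added), no variance trend, only the 4 libraries compared, only events between 0.01 and 0.99, repeated events removed, each library left out and the hairpin number as a block.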

Additional observations from a re-analysis of the deposited data

Results flagged for a closer look

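Events 2 and 3 of Cd247 passed the test of the difference between the knockdowns. Their values were close in every library, so they are not separate measurements. Inclusion was higher under Raver2 than under Setd2 knockdown by 0.0547 ± 0.00310 (SE; limma, adjusted p = 0.0215) for event 2 and by 0.0581 ± 0.00233 (adjusted p = 0.00940) for event 3. The Raver2 knockdown libraries lay at 0.0506 to 0.0610 and the Setd2 knockdown libraries below 0.01. Event 1 of Cd247 did not pass in any comparison. It was above 0.99 in both Ctr libraries, at 0.866 and 0.903 under Raver2 knockdown, and at 0.855 and above 0.99 under Setd2 knockdown. The call was lost in 7 of the 12 other settings run for event 2 and in 3 of 12 for event 3, with adjusted p from 0.00139 to 0.504 over both events, the highest for both with the hairpin number as a replicate block. The difference therefore depends on these settings, and its cause was not tested.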

How the results depend on the processing

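The differences from Ctr of the Srsf1 event, both Clk1 events and Luc7l events 2 and 3 stayed positive when any 1 library was left out, and that of Luc7l event 1 under Setd2 knockdown did not keep its sign. In fits with 2 libraries per group, 0 of the 6 events passed the adjusted threshold (limma) in each comparison and setting, with 1 exception. Without a variance trend, the Srsf1 event passed for each knockdown against Ctr, where 115 (Raver2) and 88 (Setd2) of all 4658 events passed. Across these settings, 3 to 5 of the 6 had an unadjusted limma p under 0.05 against Ctr. In those that tested all 4658 events, 493 to 611 were counted for Raver2 and 511 to 572 for Setd2 knockdown. Among the 2000 events between 0.01 and 0.99 it was 281 and 285. These counts support nothing, since the genes were chosen on the same values.

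The counts over all events moved more. For Raver2 knockdown against Ctr, 113 events were called, 75 with only the 4 libraries compared, 10 among the 2000 events between 0.01 and 0.99, and 74 to 291 leaving out 1 library (lowest without Setd2 knockdown library 2, highest without Ctr library 1; 280 without Ctr library 2). For Setd2 knockdown against Ctr, 104 were called, 0 with only the 4 libraries compared (554 at an unadjusted p under 0.05), 6 among events between 0.01 and 0.99, and 48 to 279 leaving out 1 library (54 and 48 without Raver2 knockdown library 1 and 2, 279 and 261 without Ctr library 1 and 2). Between the knockdowns 34 were called, 0 among events between 0.01 and 0.99 (107 unadjusted), and 46 to 119 leaving out 1 library (56 without Ctr library 2, 119 and 97 without Raver2 knockdown library 1 and 2, 67 and 106 without Setd2 knockdown library 1 and 2). With the hairpin number as a replicate block, 0 events were called between the knockdowns (265 unadjusted). This fit leaves fewer residual degrees of freedom than the other settings. The names sh1 and sh2 stand for different hairpins for each target, and deviations of libraries with the same number correlated at 0.0146 over all events. A correlation over all events cannot tell whether some events share a deviation, so no conclusion on pairing is drawn. The cause of these shifts was not tested.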
